A study of Mus musculus with 6 samples.

Results

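Collagens, laminins and a small set of other matrix proteins were followed through the cells of the mouse testis, in mice that drank nicotine and in control mice. The 65 genes were taken by symbol from the 32285 genes of the count tables: every gene named Col, a number, a and a number, every Lama, Lamb or Lamc gene, and Fn1, Nid1, Nid2, Dcn, Lum, Mgp, Sparc, Bgn, Fbn1 and Eln. By role, 22 were basement membrane genes and 43 were counted as interstitial matrix. The mice were males of the inbred strain C57BL/6J, their whole testes were dissociated, and both testes of a mouse gave 1 library of droplet-captured single cells (10x 3' chemistry). The nicotine group had 200 µg/mL nicotine in its drinking water for 8 weeks, from 3 weeks of age, and the control group had normal water. All mice were 11 weeks old at sampling, with 3 mice per group, and the mouse is the replicate.

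The basement membrane is a thin sheet under epithelia and around vessels, built from a laminin network and a collagen IV network that nidogens tie together. In the seminiferous tubule it lies between the Sertoli cells, which nurse the germ cells, and the peritubular myoid cells, and both are known sources of it. The interstitial matrix between tubules holds fibrillar collagens, beaded collagen VI filaments, small proteoglycans such as decorin (Dcn), and elastic fibres. In rat testis, a laminin with the alpha 3, beta 3 and gamma 3 chains is known at the junction of Sertoli cells with elongating spermatids.

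The libraries held 67853893, 73596886 and 68528823 UMIs (unique molecular identifiers, each a captured transcript) in nicotine mice and 88329607, 75923816 and 83740650 in control mice. After filtering, 9882 to 10495 cells per nicotine mouse and 9848 to 11008 per control mouse were kept, and any pair of libraries shared 22 to 47 cell barcodes. Counts are per UMI at the 3' end of a transcript, so levels are not scaled to gene length. They are given as CPM, counts per 1000000 UMIs of the cells named. Clusters were named "-like" from markers that included no matrix gene, and the matrix genes were left out of the clustering. Sertoli-like (4645), stromal-like (387), Leydig-like (354), macrophage-like (235) and lymphocyte-like (51) cells were found besides germ cells. A cluster of 168 cells, led by Nhs, Ccn2, Fhl2 and Cyp26b1, and one of 157 cells with some vessel markers (Cldn5, Cdh5, Rgs5) earned no name and are called the Cyp26b1 cluster and the vessel-marker cluster. In the latter, led by Snhg11, Tmem164 and Rtl4, 0 endothelial markers met the naming rule. Its 11 endothelial markers summed to 0 to 2429 CPM in nicotine mice and 237 to 2434 CPM in control mice. The 10 Leydig markers summed there to 1104 to 3923 CPM in nicotine mice and 1240 to 5383 CPM in control mice. The vessel label thus did not hold in every mouse. No cluster was named myoid-like. The smooth muscle genes Acta2, Myh11, Tagln and Cnn1 stood at 6.97, 0, 1.39 and 1.39 CPM in stromal-like cells. In the Cyp26b1 cluster they stood at 6.26, 6.26, 3.13 and 0 CPM. The muscle genes Des and Lmod1 stood higher, at 47.4 and 34.9 CPM in stromal-like cells. In the Cyp26b1 cluster Des and Lmod1 had 21.9 and 37.6 CPM, and in Sertoli-like cells both were at 0. The list of 11 myoid markers also holds Cyp26b1, and its sum was highest in the Cyp26b1 cluster, at 1429 to 2076 CPM in nicotine mice and 2229.9 to 2646 CPM in control mice, beside 1032 to 1457 CPM in nicotine mice and 1006 to 1185 CPM in control mice in stromal-like cells. Cyp26b1, an enzyme that breaks down retinoic acid, alone stood at 2057 and 853 CPM in these cells. By marker score the Cyp26b1 cluster was nearest to stromal cells. Its 13 stromal markers, with 0 of them at 0, summed to 9508 to 12715 CPM in nicotine mice and 9733 to 12664 CPM in control mice. In stromal-like cells they summed to 16289 to 19907 CPM in nicotine mice and 17367 to 19695 CPM in control mice. The basement membrane could therefore not be split into a Sertoli and a myoid share, and the Sertoli-like and stromal-like classes stand in for that split.

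Most matrix transcripts in these libraries lay in germ cells, as did most transcripts of all genes. Of the 241756 UMIs of the 65 genes, 80.8% were in named germ cell classes and 11.9% in somatic clusters. For the basement membrane genes (22834 UMIs) the shares were 61.1% and 25.5%, and for the interstitial genes (218922 UMIs) they were 82.9% and 10.5%. Col22a1 and Col20a1 gave 70987 and 63003 of these UMIs, and without them 26.1% of interstitial UMIs were somatic. The somatic clusters were 9.68% of all cells and held 2.26% of all UMIs. Round and elongating spermatid-like cells held 48.9% and 29.4% of all UMIs, and late and early spermatocyte-like cells 8.14% and 4.21%. Matrix UMIs were thus more often somatic than UMIs of all genes. By gene, 18 of 65 members had at least 50% of their UMIs in somatic clusters (7 of 22 basement membrane and 11 of 43 interstitial genes). Among genes outside the module that were tested in whole testis, 1226 had at least 50% and 20710 had less. The genes nearest that line were Col4a1 (56.8%) above it and Lama4 (40.9%) below it. The map of levels and the bars of UMI shares show both patterns.

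**Figure D1:**
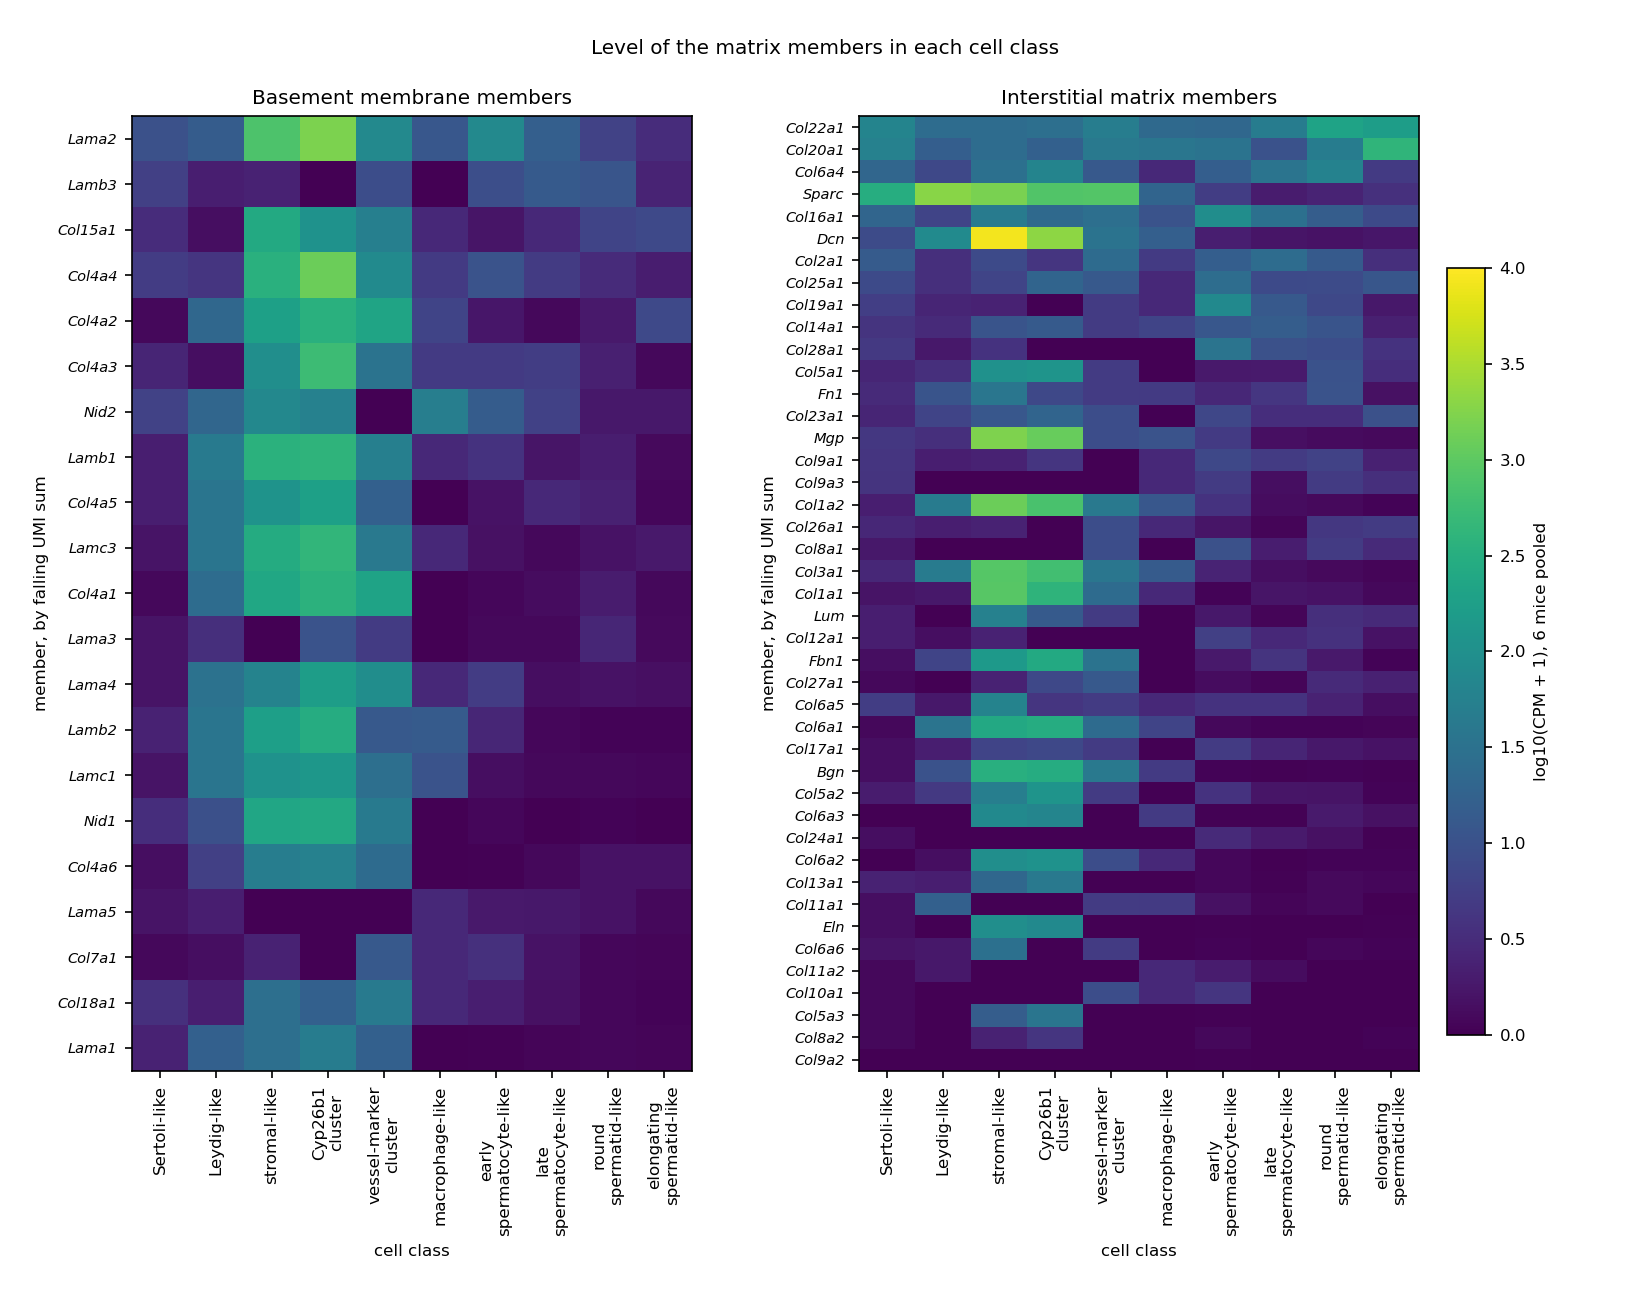
Level of matrix genes (rows, by falling UMI sum) in each cell class (columns), as log10(CPM + 1) with the 6 mice pooled. Dcn in stromal-like cells is the brightest field, and Col22a1 and Col20a1 are bright in the spermatid columns, where most other rows are dark.

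**Figure D2:**
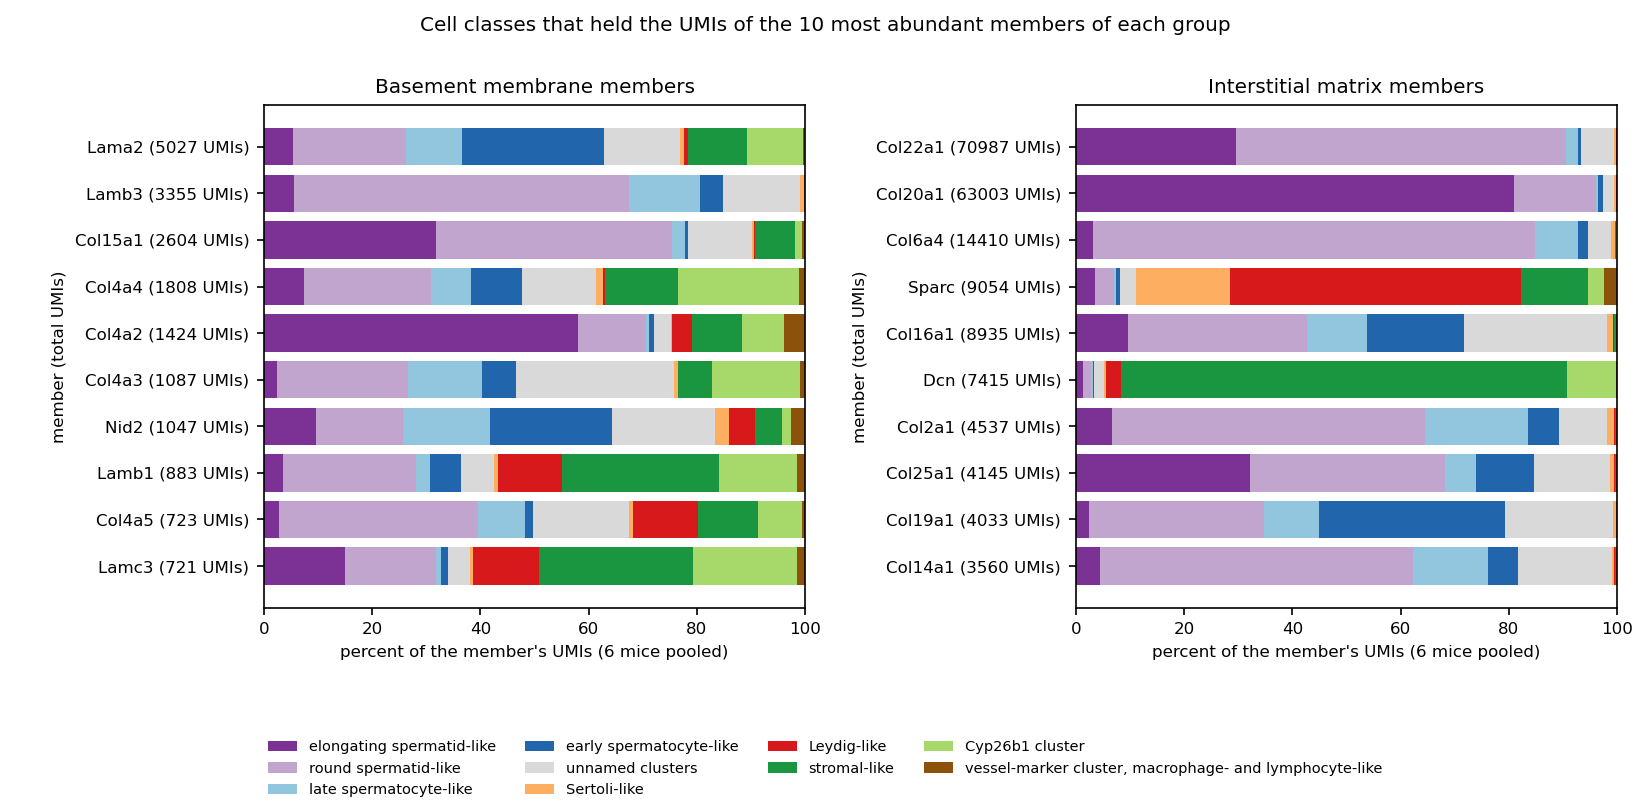
Percent of each gene's UMIs found in each cell class, for the 10 genes with the most UMIs in each group, 6 mice pooled. Sparc and Dcn are held by somatic cells, while the bars of Col22a1, Col20a1, Col6a4 and Lamb3 hold hardly any somatic share.

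Fibril-associated collagens, which sit on the surface of larger fibrils, had the highest matrix levels in spermatids. Col22a1 (chr15:71795795-72034227, minus strand, GRCm38), known from muscle-tendon junctions, stood at 211 CPM in round spermatid-like cells and 170.2 CPM in elongating spermatid-like cells, and at 21 CPM in early spermatocyte-like cells. Col20a1 (chr2:180986535-181018363, plus strand) peaked later, with 414 CPM in elongating and 46.6 CPM in round spermatid-like cells, and it was higher in elongating cells in 6 of 6 mice. Elongating spermatid-like cells held 80.9% of its UMIs. BX649560.1 overlaps Col20a1 on the same strand, so their reads cannot be told apart where they overlap. Col6a4, a collagen VI chain, was the opposite in order, with 57.4 CPM in round and 3.82 CPM in elongating spermatid-like cells. It was higher in round spermatid-like cells in 6 of 6 mice, and they held 81.6% of its UMIs.

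Another set was highest before meiosis ended. Col16a1, a fibril-associated collagen, had 90.9 CPM in early spermatocyte-like cells, 29.3 CPM in late ones, 14.4 CPM in round and 7.03 CPM in elongating spermatid-like cells. Col19a1, of the same family, had 78.5, 12, 6.35 and 0.828 CPM in that order of classes, and both were higher in early spermatocyte-like than in round spermatid-like cells in 6 of 6 mice. Col25a1, a transmembrane collagen, had 25.4, 6.8, 7.31 and 10.8 CPM. Col2a1, the main fibrillar collagen of cartilage, was highest in late spermatocyte-like cells (25.3 CPM), and Col14a1 had 14.4 CPM there and 10.1 CPM in round spermatid-like cells. The unnamed clusters of low UMI number, 0 and 1, also held these genes. Cluster 0 (2255 cells) had 379 CPM of Col22a1 and cluster 1 (4955 cells) had 143 CPM of Col16a1. Cluster 1 also held 12.7% of the UMIs of Col14a1, beside 13.8% in late spermatocyte-like cells. Among fibrillar collagens, Col1a1 and Col3a1, the main ones of connective tissue, stood at 0.557 and 0.264 CPM in round spermatid-like cells, whereas Col2a1 and Col5a1 stood at 12.8 and 9.07 CPM there.

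The promoters of Col20a1 and Col6a4 are shown because their genes have sharp and opposite spermatid patterns, beside Sparc, the mostly somatic member with the most UMIs. Promoter windows (250 bases before to 50 after the start, RefSeq, GRCm38.p6) were given for 44 of the 65 members. Capitals mark, on either strand, the GC box GGGCGG, the CCAAT box CCAAT, the TATA box TATAAA and the cAMP response element TGACGTCA, which in the sequences below do not overlap. These letters occur in 35.7%, 37.4%, 13.6% and 1.79% of all 32851 promoter windows of that length, and in 60.4%, 31.2%, 10.4% and 2.08% of the 48 windows of members. Col20a1 (chr2:180986285-180986584, plus strand) and Sparc (chr11:55420031-55420330, minus strand) hold none of the motifs. The Sparc window lies at the RefSeq start, inside the wider span that GENCODE gives the gene. Col6a4 (chr9:106096642-106096941, minus strand) holds 2 GC boxes and 1 CCAAT box.
Col20a1: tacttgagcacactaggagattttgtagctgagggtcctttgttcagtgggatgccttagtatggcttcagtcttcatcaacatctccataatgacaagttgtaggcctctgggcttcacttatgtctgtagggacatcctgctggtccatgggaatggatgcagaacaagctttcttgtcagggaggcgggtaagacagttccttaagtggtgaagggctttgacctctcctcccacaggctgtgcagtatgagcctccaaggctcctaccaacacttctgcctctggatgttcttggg
Col6a4: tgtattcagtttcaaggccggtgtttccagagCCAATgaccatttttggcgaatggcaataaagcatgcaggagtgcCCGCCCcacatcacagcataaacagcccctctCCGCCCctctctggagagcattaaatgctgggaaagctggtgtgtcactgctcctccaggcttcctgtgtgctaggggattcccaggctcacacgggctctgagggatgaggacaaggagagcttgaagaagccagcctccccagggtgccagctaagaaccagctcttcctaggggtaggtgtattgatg
Sparc: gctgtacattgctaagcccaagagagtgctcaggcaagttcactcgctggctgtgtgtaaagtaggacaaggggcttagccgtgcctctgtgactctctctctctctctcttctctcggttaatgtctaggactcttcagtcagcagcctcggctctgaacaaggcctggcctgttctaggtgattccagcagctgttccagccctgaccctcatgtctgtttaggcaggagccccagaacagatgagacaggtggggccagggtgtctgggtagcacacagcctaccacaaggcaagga

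The interstitial matrix of somatic cells was led by Dcn (chr10:97479609-97518143, plus strand), the small proteoglycan that binds collagen fibrils. Dcn stood at 8518 CPM in stromal-like cells, 2091 CPM in the Cyp26b1 cluster and 82 CPM in Leydig-like cells, against 7.16 CPM in Sertoli-like and 0.552 CPM in round spermatid-like cells. Stromal-like cells held 82.4% of its 7415 UMIs although they were 0.625% of the cells. Mgp, an inhibitor of calcification, followed with 1665 CPM, and the collagen I and III genes Col1a2, Col1a1 and Col3a1 had 1247, 905 and 888 CPM there. Bgn (biglycan), Col6a1, Fbn1 (fibrillin 1) and Eln (elastin) had 337, 259, 145 and 94.8 CPM. Lum (lumican) differed from the other proteoglycans, with 55.8 CPM in stromal-like cells and 88.4% of its 878 UMIs in germ cell classes.

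Sparc (osteonectin, chr11:55394500-55423183, minus strand), a collagen-binding matrix protein, was abundant in Leydig-like and stromal-like cells and lower in Sertoli-like cells. It stood at 1949.5 CPM in Leydig-like, 1567 CPM in stromal-like and 311 CPM in Sertoli-like cells, and at 848 and 820.2 CPM in the vessel-marker and Cyp26b1 clusters. Leydig-like cells, the androgen producers between the tubules, were above stromal-like cells in 6 of 6 mice for Sparc, and Sparc was 74.7% of their matrix UMIs. Dcn and Col3a1 (45.2 CPM) came next in Leydig-like cells. Col11a1 was an exception to the stromal pattern, with 39 UMIs (15.6 CPM) in Leydig-like and 0 in stromal-like cells, where 3 UMIs would be 4.18 CPM. In Sertoli-like cells Sparc was 53.5% of matrix UMIs, followed by Col22a1 (61.8 CPM) and Col20a1 (55.7 CPM). The 12 elongating spermatid markers summed to 15127 to 20231 CPM in Sertoli-like cells of nicotine mice and 20107 to 29655 CPM in those of control mice, with 0 of them at 0, and their part in the Col22a1 and Col20a1 values was not tested.

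Basement membrane genes were highest in stromal-like cells and in the Cyp26b1 cluster, not in Sertoli-like cells. In stromal-like cells their sum was 3527, 3303 and 3134 CPM in nicotine mice, against 3442, 3462 and 3497 CPM in control mice. In Sertoli-like cells it was 31.2, 46.9 and 30.8 CPM in nicotine mice, against 47.6, 40.5 and 41.8 CPM in control mice. These values were far below stromal-like cells in every mouse, with overlapping groups. The part of RNA from other cells in them was not tested. Over all cells of a mouse the sum was higher, at 51, 53.3 and 48.9 CPM in nicotine mice and 53.1, 55.4 and 63.5 CPM in control mice. In the Cyp26b1 cluster it was 6328, 5882 and 4902 CPM in nicotine mice, against 6622, 6150.1 and 6917 CPM in control mice, from 10, 17 and 22 cells in nicotine mice and 43, 36 and 40 in control mice. Of 22 basement membrane genes, 15 reached 30 UMIs in stromal-like cells, 11 in Leydig-like cells and 1 in Sertoli-like cells, where it was Lama2 (8.75 CPM). Sertoli-like cells carried 1083 UMIs per cell, against 1853 in stromal-like cells. The Sertoli markers, 16 genes, summed to 7429 to 9638 CPM in Sertoli-like cells of nicotine mice and 8314 to 9518 CPM in those of control mice, with 1 of them at 0.

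Among the laminins, the cross-shaped trimers that start basement membrane assembly, Lama2 (chr10:26980036-27619758, minus strand) was the most abundant, with 763 CPM in stromal-like cells and 1615 CPM in the Cyp26b1 cluster. It also had 74.5 CPM in early spermatocyte-like cells, which held 26.2% of its 5027 UMIs. The beta chains Lamb1 and Lamb2 had 356 and 183 CPM in stromal-like cells, the gamma chains Lamc1 and Lamc3 107 and 287 CPM, and Lama4, a vessel laminin, 59.96 CPM, beside 91.6 CPM in the vessel-marker cluster and 166 CPM in the Cyp26b1 cluster. The epithelial laminin chains Lama3 and Lamb3 were mostly in germ cells. Lamb3 had 12.8 CPM in late spermatocyte-like, 10.1 CPM in round spermatid-like and 1.39 CPM in stromal-like cells. It was higher in unnamed cluster 1, at 43.8 CPM. On the same strand, 4930570N18Rik overlaps Lamb3. Lama3 had 514 UMIs in all, 74.7% of them in germ cell classes. Lamc3, the gamma chain paired with Lama3 and Lamb3 in rat testis, was 61.9% somatic, with 0.591 CPM in round and 0.876 CPM in elongating spermatid-like cells. The nidogens, which bridge laminin and collagen IV, differed: Nid1 was 88.2% somatic, and Nid2 was 16.6% somatic, had 73.9 CPM in stromal-like cells and 56.3 CPM in the Cyp26b1 cluster, had 13.4 CPM in early spermatocyte-like cells, and was the highest member in macrophage-like cells (50.6 CPM, from 27 UMIs).

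The Cyp26b1 cluster differed from stromal-like cells in its mix of matrix. It was higher in 6 of 6 mice for Lama2 (2.12-fold, mice pooled), Col4a3 (5.84-fold), Col4a4 (3.71-fold), Col4a1, Col4a2, Lamc3, Lamb1, Lamb2 and Fbn1. It was lower in 6 of 6 mice for Dcn (2091 against 8518 CPM), Col1a1, Col1a2, Col3a1, Col15a1, Lum and Sparc. These are levels of cells that clustering had already set apart, so no test was made.

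Collagen IV genes lie in head-to-head pairs that share a start region. Col4a1 and Col4a2, the chains of the common collagen IV network, start 21 bases apart on opposite strands of chromosome 8. Col4a3 and Col4a4 on chromosome 1 start 72 bases apart, and Col4a5 and Col4a6 on the X chromosome 1309 bases apart (GENCODE vM21, GRCm38). The promoter windows of the Col4a1 and Col4a2 pair are shown because they share 78 bases of identical sequence and yet the pair's UMIs parted in elongating spermatid-like cells. Col4a1 (chr8:11312777-11313076, minus strand) holds 1 GC box and 1 CCAAT box, and Col4a2 (chr8:11312555-11312854, plus strand) holds 3 GC boxes and 1 CCAAT box.
Col4a1: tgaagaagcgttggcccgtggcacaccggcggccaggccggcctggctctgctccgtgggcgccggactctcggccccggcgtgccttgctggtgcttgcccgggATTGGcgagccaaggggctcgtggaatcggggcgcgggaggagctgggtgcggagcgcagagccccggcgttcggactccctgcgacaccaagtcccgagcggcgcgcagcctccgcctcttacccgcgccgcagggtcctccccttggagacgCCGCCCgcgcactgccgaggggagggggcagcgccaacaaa
Col4a2: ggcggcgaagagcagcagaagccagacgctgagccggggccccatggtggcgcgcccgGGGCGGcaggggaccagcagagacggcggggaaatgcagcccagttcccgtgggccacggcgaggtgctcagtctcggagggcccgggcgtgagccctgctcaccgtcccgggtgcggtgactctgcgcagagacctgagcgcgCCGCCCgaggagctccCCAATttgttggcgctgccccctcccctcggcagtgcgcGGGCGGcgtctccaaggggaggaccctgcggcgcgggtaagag

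In somatic cells the pair was close to even, with 175 UMIs of Col4a1 and 132 of Col4a2 in stromal-like cells, 118 UMIs of Col4a1 and 110 of Col4a2 in the Cyp26b1 cluster, 63 UMIs of Col4a1 and 52 of Col4a2 in Leydig-like cells and 52 UMIs of Col4a1 and 54 of Col4a2 in the vessel-marker cluster. Round spermatid-like cells also had both, with 209 UMIs of Col4a1 and 178 of Col4a2. Elongating spermatid-like cells had 29 UMIs of Col4a1 and 827 of Col4a2, so that Col4a2 was 96.6% of the pair there (exact 95% binomial interval 95.2 to 97.7%), against 43% in stromal-like cells (37.4 to 48.7%). These intervals cover counting error only. In elongating spermatid-like cells Col4a2 had 7.81, 7.2 and 6.98 CPM in nicotine mice, against 5.3, 6.15 and 7.4 CPM in control mice. The level was thus low but present in each mouse, and Gm15419 overlaps Col4a2 on the other strand. Col4a6 was likewise the larger partner in elongating spermatid-like cells (20 UMIs of Col4a5 and 68 of Col4a6) and the smaller one in stromal-like cells (80 UMIs of Col4a5 and 35 of Col4a6). For the Col4a3 and Col4a4 pair, stromal-like cells had 68 UMIs of Col4a3 and 244 of Col4a4, and early spermatocyte-like cells 68 UMIs of Col4a3 and 170 of Col4a4. Col15a1, a collagen of the outer face of basement membranes, had 270.5 CPM in stromal-like, 6.73 CPM in elongating and 5.53 CPM in round spermatid-like cells.

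Nicotine and control testes were then compared over all cells of a mouse. In whole testis the matrix genes of somatic cells had lower means in nicotine mice, though none passed the test, and the matrix genes of germ cells lay on both sides of 0. Of the 65 members, 62 passed the filter on low counts and 0 passed edgeR's quasi-likelihood test at an adjusted p of 0.05, where 0.264% of all 21998 genes tested did. At an unadjusted p under 0.05 there were 14 members, 12 of them lower in nicotine mice, against 7.06% of all genes, and DESeq2 called 1. The nicotine mice lay wholly below the control mice for 8 members (6.85% of all genes) and wholly above them for 4 (3.88% of all genes). The median log2 fold change was -0.20 over the 22 basement membrane genes, 16 of them below 0, and -0.07 over the 40 interstitial genes, 23 of them below 0. Over all genes it was 0.002.

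The source of a gene's UMIs separated the members more than the basement membrane and interstitial split did. All 17 tested members with at least 50% of their UMIs in somatic clusters, called mostly somatic, lay below 0, with a median of -0.48. Of the 45 with less, called mostly germ here, 22 did, with a median of 0.02. That label covers Col4a3, Col4a4, Col4a5 and Fbn1, with only 46.6, 47.7, 49.7 and 41.9% of UMIs in named germ cell classes. The split by source was chosen after the values were seen and has no test of its own. Other genes behaved likewise: of 1226 tested genes outside the module with at least 50% of their UMIs in somatic clusters, 1189 lay below 0, with a median of -0.55. As a share of kept cells, somatic clusters made up 7.2, 8.4 and 8.21% in nicotine mice, against 12.1, 10.2 and 11.6% in control mice. As a share of all UMIs they held 1.61, 1.82 and 1.94% in nicotine mice, against 2.7, 2.46 and 2.79% in control mice. The nicotine mice were below the control mice in both measures (two-sided exact permutation test over mice, p = 0.1, the smallest that 3 against 3 allows). Within the summed somatic cells the median of the same 17 members was 0.007, with 8 below 0. The other mostly somatic genes differed there from the members: of 1089 tested, 817 lay below 0, with a median of -0.18. In the whole-testis sum, fewer somatic cells and less matrix RNA per cell cannot be told apart.

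**Figure D3:**
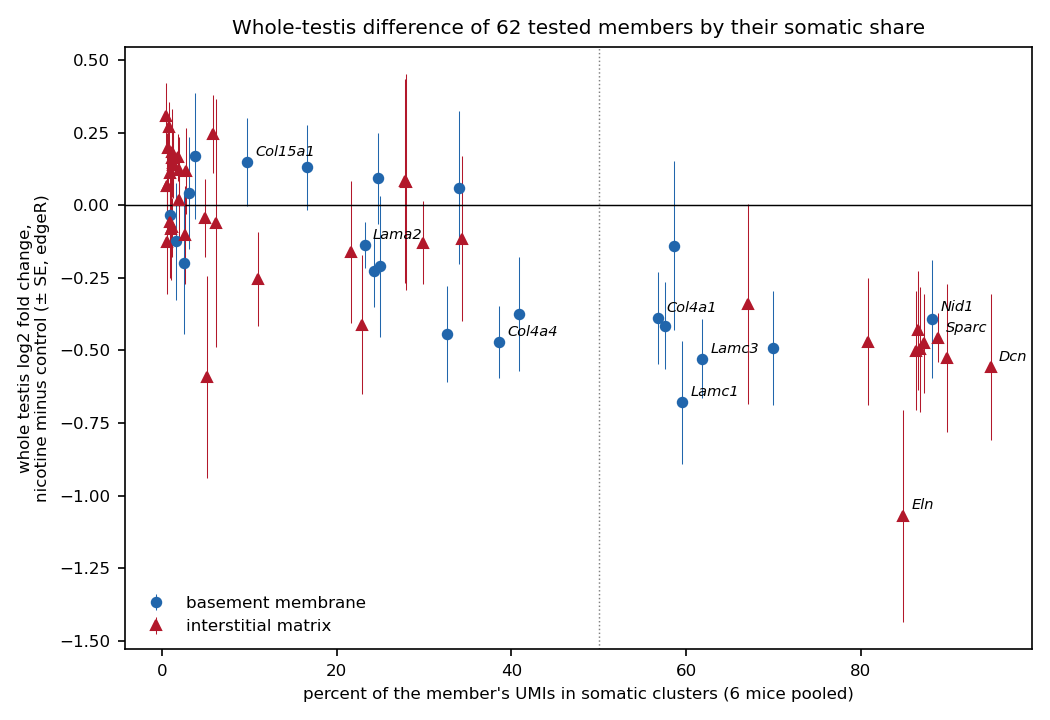
Whole-testis log2 fold change, nicotine minus control, of the 62 tested members (points, with edgeR's SE as bars) against the percent of each gene's UMIs in somatic clusters. All 17 genes right of the dotted line at 50% lie below 0, in both matrix groups, and genes near 0% lie on both sides of 0.

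Sparc came nearest to a call. It had 17, 17.9 and 18.9 CPM in nicotine mice, against 23.2, 26.6 and 24.7 CPM in control mice, a log2 fold change -0.46 ± 0.08 (SE; edgeR adjusted p = 0.0582), and the groups did not overlap. Its adjusted p was 0.00611 to 0.372 over 11 alternatives, under 0.05 in 4 of them. Leaving out nicotine replicate 3 was one of these (edgeR adjusted p = 0.048). Dcn had 11.7, 18.1 and 12 CPM in nicotine mice, against 16.7, 16.5 and 28.9 CPM in control mice, a log2 fold change -0.56 ± 0.25 (SE; edgeR adjusted p = 0.762). Its groups overlapped, since nicotine replicate 2 lay above control replicates 1 and 2. Col1a2, a chain of collagen I, had 2.5, 3.28 and 2.62 CPM in nicotine mice, against 3.69, 3.18 and 4.91 CPM in control mice, a log2 fold change -0.48 ± 0.17 (SE; edgeR adjusted p = 0.452). Eln, the core of elastic fibres, was scarce, with 0.112, 0.205 and 0.178 CPM in nicotine mice, against 0.473, 0.23 and 0.34 CPM in control mice. Its groups did not overlap, and its log2 fold change -1.07 ± 0.37 (SE; edgeR adjusted p = 0.409) rested on 112 UMIs in all. Eln and Col1a2, like the further genes under 0.05 below, were named after their values were seen.

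Among basement membrane genes, Lamc3 had 1.46, 1.4 and 1.28 CPM in nicotine mice, against 1.97, 1.84 and 2.21 CPM in control mice, a log2 fold change -0.53 ± 0.14 (SE; edgeR adjusted p = 0.179). Col4a4, a collagen IV chain best known from kidney, had 3.65, 3.7 and 3.28 CPM in nicotine mice, against 4.61, 4.41 and 5.84 CPM in control mice, a log2 fold change -0.47 ± 0.12 (SE; edgeR adjusted p = 0.19). The groups did not overlap for either gene, nor for Lamb1, which had 1.63, 2.11 and 1.57 CPM in nicotine mice, against 2.26, 2.17 and 2.72 CPM in control mice. Lama2 averaged 11.3 ± 0.743 CPM in nicotine mice and 12.6 ± 0.882 CPM in control mice (SD, n = 3 each), with overlapping groups. Lamb3, the epithelial laminin chain of germ cells, averaged 7.87 ± 0.66 CPM in nicotine mice and 8.15 ± 1.02 CPM in control mice, a difference smaller than the spread between mice. The groups were also within 1 SD of each other for Col15a1 (6.53 ± 0.797 CPM in nicotine mice and 5.93 ± 0.977 CPM in control mice), Col4a2 (3.5 ± 0.3004 CPM in nicotine mice and 3.3 ± 0.682 CPM in control mice) and Nid2 (2.61 ± 0.556 CPM in nicotine mice and 2.41 ± 0.232 CPM in control mice). Col4a3 and Col4a5 averaged 2.36 and 1.43 CPM in nicotine mice, against 2.79 and 1.97 CPM in control mice, with overlapping groups.

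For the collagens with the most UMIs in spermatids the groups overlapped. Col22a1 had 170.0, 174 and 174 CPM in nicotine mice, against 159.7, 171 and 169.6 CPM in control mice, and Col20a1 had 133, 146 and 179.9 CPM in nicotine mice, against 175, 125 and 141 CPM in control mice. Col6a4 had 36.3, 36.4 and 27.1 CPM in nicotine mice, against 31.1, 38.8 and 36.3 CPM in control mice. Col19a1 and Col16a1, highest among the named germ cell classes in early spermatocyte-like cells, stood above the control mice in every nicotine mouse: Col19a1 had 10.9, 11.2 and 9.57 CPM in nicotine mice, against 8.1, 9.13 and 9.27 CPM in control mice, a log2 fold change 0.27 ± 0.08 (SE; edgeR adjusted p = 0.314), and Col16a1 had 22.8, 21.8 and 23 CPM in nicotine mice, against 19.99, 19.7 and 21.2 CPM in control mice, a log2 fold change 0.17 ± 0.08 (SE; edgeR adjusted p = 0.7999). Early spermatocyte-like cells numbered 839, 826 and 845 in nicotine mice and 688, 715 and 777 in control mice, and their part in these whole-testis values was not tested. Col2a1, Col25a1 and Col14a1 averaged 11.3, 10.4 and 8.81 CPM in nicotine mice, against 10.5, 9.53 and 8.26 CPM in control mice.

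The other members under an unadjusted 0.05 in whole testis were Lamc1, Lamb2, Col4a1, Col4a5, Mgp and Col6a1, all lower in nicotine mice, and Col8a1, a network collagen, which was higher. Lamc1, Lamb2 and Col4a1 averaged 0.661, 0.922 and 1.46 CPM in nicotine mice, against 1.07, 1.3 and 1.94 CPM in control mice. Mgp and Col6a1 averaged 3.57 and 0.831 CPM in nicotine mice, against 5.11 and 1.19 CPM in control mice, and Col8a1 averaged 3.6 CPM in nicotine mice, against 2.93 CPM in control mice. Their adjusted p ranged from 0.32 for Lamc1 to 0.672 for Col6a1 (edgeR). Col4a1, Lamc1 and Nid1 lay lower in every nicotine mouse, and Lum and Col8a1 higher. Summed over the mostly somatic basement membrane genes, the level was 6.9, 7.9 and 6.76 CPM in nicotine mice, against 9.36, 8.78 and 11.7 CPM in control mice. Over the mostly somatic interstitial genes it was 39.8, 51 and 42.7 CPM in nicotine mice, against 56.1, 57.4 and 76.9 CPM in control mice, and the groups did not overlap in either sum. Over the mostly germ members the sums were 44.1, 45.4 and 42.2 CPM in nicotine mice, against 43.7, 46.7 and 51.8 CPM in control mice for basement membrane genes, and 459, 478 and 492 CPM in nicotine mice, against 466, 446 and 466 CPM in control mice for interstitial genes, with overlapping groups in both. A sum follows its most abundant genes, here Sparc and Dcn for the somatic interstitial genes and Col22a1 and Col20a1 for the germ ones.

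**Figure D4:**
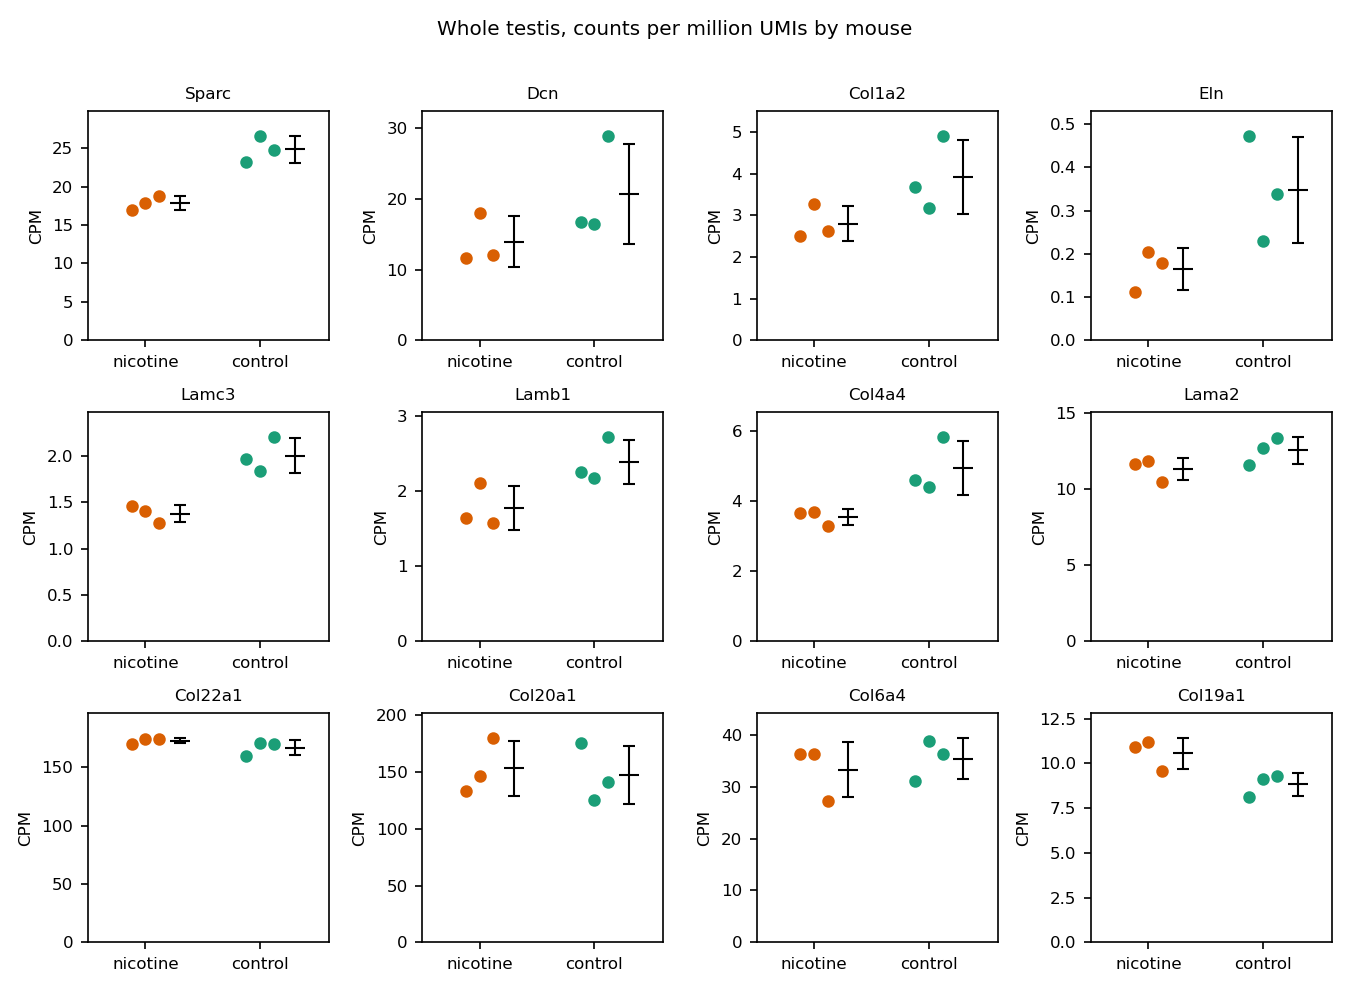
CPM in whole testis for 12 members, with a point for each mouse and the mean and SD beside them (n = 3 per group). Sparc, Eln, Lamc3, Lamb1 and Col4a4 lie lower in all nicotine mice, Col19a1 lies higher, and the groups overlap for the other panels.

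Within stromal-like cells, where interstitial matrix levels were highest, no member passed the test. Of 22 members tested, 0 passed at an adjusted p of 0.05 (0% of 2167 genes did) and 1 had an unadjusted p under 0.05 (3.74% of all genes), with DESeq2 calling 0. The median over the members was -0.06. Dcn had 7741, 8941 and 7606 CPM in nicotine mice, against 7802, 9637 and 8925 CPM in control mice, a log2 fold change -0.15 ± 0.16 (SE; edgeR adjusted p = 0.993), with overlapping groups. Mgp averaged 1579 ± 388 CPM in nicotine mice and 1738 ± 34.6 CPM in control mice (SD, n = 3 each), and its groups overlapped. Sparc averaged 1508 ± 43.4 CPM in nicotine mice and 1657 ± 176 CPM in control mice, and Lama2 averaged 741 ± 171 CPM in nicotine mice and 769.6 ± 58.9 CPM in control mice, also with overlapping groups. The basement membrane genes Col15a1 and Col4a4 lay lower in every nicotine mouse (3.51% of all genes did): Col15a1 had 241, 238 and 255 CPM in nicotine mice, against 279, 327 and 278 CPM in control mice, a log2 fold change -0.29 ± 0.25 (SE; edgeR adjusted p = 0.993), and Col4a4 had 301, 311 and 319 CPM in nicotine mice, against 338, 374 and 368 CPM in control mice, a log2 fold change -0.25 ± 0.23 (SE; edgeR adjusted p = 0.993). Col3a1 and Bgn lay higher in every nicotine mouse (5.17% of all genes did), with Col3a1 at 986 ± 70.6 CPM in nicotine mice and 804 ± 60.4 CPM in control mice, and Bgn at 381 ± 54.2 CPM in nicotine mice and 305 ± 14.7 CPM in control mice. Col4a2 had the one unadjusted p under 0.05 (0.0305 by edgeR), at 120.4, 148 and 140.2 CPM in nicotine mice, against 242, 140.3 and 227 CPM in control mice, with overlapping groups.

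Leydig-like cells gave 12 tested members and Sertoli-like cells 5, and 0 and 0 of them passed, beside 0.016% of 6241 and 0.0624% of 8014 genes. At an unadjusted p under 0.05 there were 1 and 0 (4.55% and 7.46% of all genes), and DESeq2 called 0 and 0. In Leydig-like cells Sparc had 1910.2, 2058 and 2316 CPM in nicotine mice, against 1913, 2016 and 1708 CPM in control mice, a log2 fold change 0.14 ± 0.14 (SE; edgeR adjusted p = 0.997). In Sertoli-like cells it had 355, 361 and 314 CPM in nicotine mice, against 263, 353 and 279 CPM in control mice, a log2 fold change 0.20 ± 0.11 (SE; edgeR adjusted p = 0.752). Neither class showed the lower Sparc of the whole-testis sum, and the groups overlapped in both. As a share of kept cells, Leydig-like cells made up 0.474, 0.445 and 0.4002% in nicotine mice, against 0.574, 0.873 and 0.663% in control mice, with no overlap. In Leydig-like cells the nicotine mice lay wholly below the control mice for 0 tested members (4.13% of all genes) and above them for 0 (5.93% of all genes), and in Sertoli-like cells below for 1 tested member (5.85% of all genes) and above them for 0 (7.05% of all genes). Col3a1 had the unadjusted p under 0.05 in Leydig-like cells (0.0144 by edgeR), at 23.5 ± 15.1 CPM in nicotine mice and 55.1 ± 26.6 CPM in control mice (SD, n = 3 each).

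When all somatic clusters were summed, 0 of 36 tested members passed (0% of 12188 genes), 5 had an unadjusted p under 0.05 (5.73% of all genes) and DESeq2 called 0. The median was -0.23 over 16 basement membrane genes, 13 of them below 0, and -0.01 over 20 interstitial genes, 10 of them below 0, beside -0.006 over all genes. The members under 0.05 before adjustment were all lower in nicotine mice: Col6a5, a collagen VI chain, Col4a3, Col4a4, Lama2 and Eln. Their log2 fold changes were -1.45 ± 0.43, -0.61 ± 0.23, -0.57 ± 0.19, -0.36 ± 0.16 and -0.83 ± 0.37 (± SE, in that order), and edgeR's adjusted p was 0.821 for each of them. Col4a3 averaged 20.6 ± 3.6 CPM in nicotine mice and 31.7 ± 3.55 CPM in control mice (SD, n = 3 each), without overlap. The nicotine mice lay wholly below the control mice for 4 tested members (5.33% of all genes) and above them for 0 (6.25% of all genes). Col4a3, Col4a4 and Lama2 are among the genes with the highest levels in the Cyp26b1 cluster relative to stromal-like cells, and as a share of kept cells that cluster made up 0.101, 0.172 and 0.21% in nicotine mice, against 0.398, 0.366 and 0.363% in control mice. Its part in these values was not tested. Inside the Cyp26b1 cluster Lama2 averaged 1500.2 ± 328 CPM in nicotine mice and 1687 ± 188 CPM in control mice, and Col4a4 averaged 1140.0 ± 428 CPM in nicotine mice and 1335 ± 129 CPM in control mice, with overlapping groups and no test, since 2 nicotine mice had under 20 cells.

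**Figure D5:**
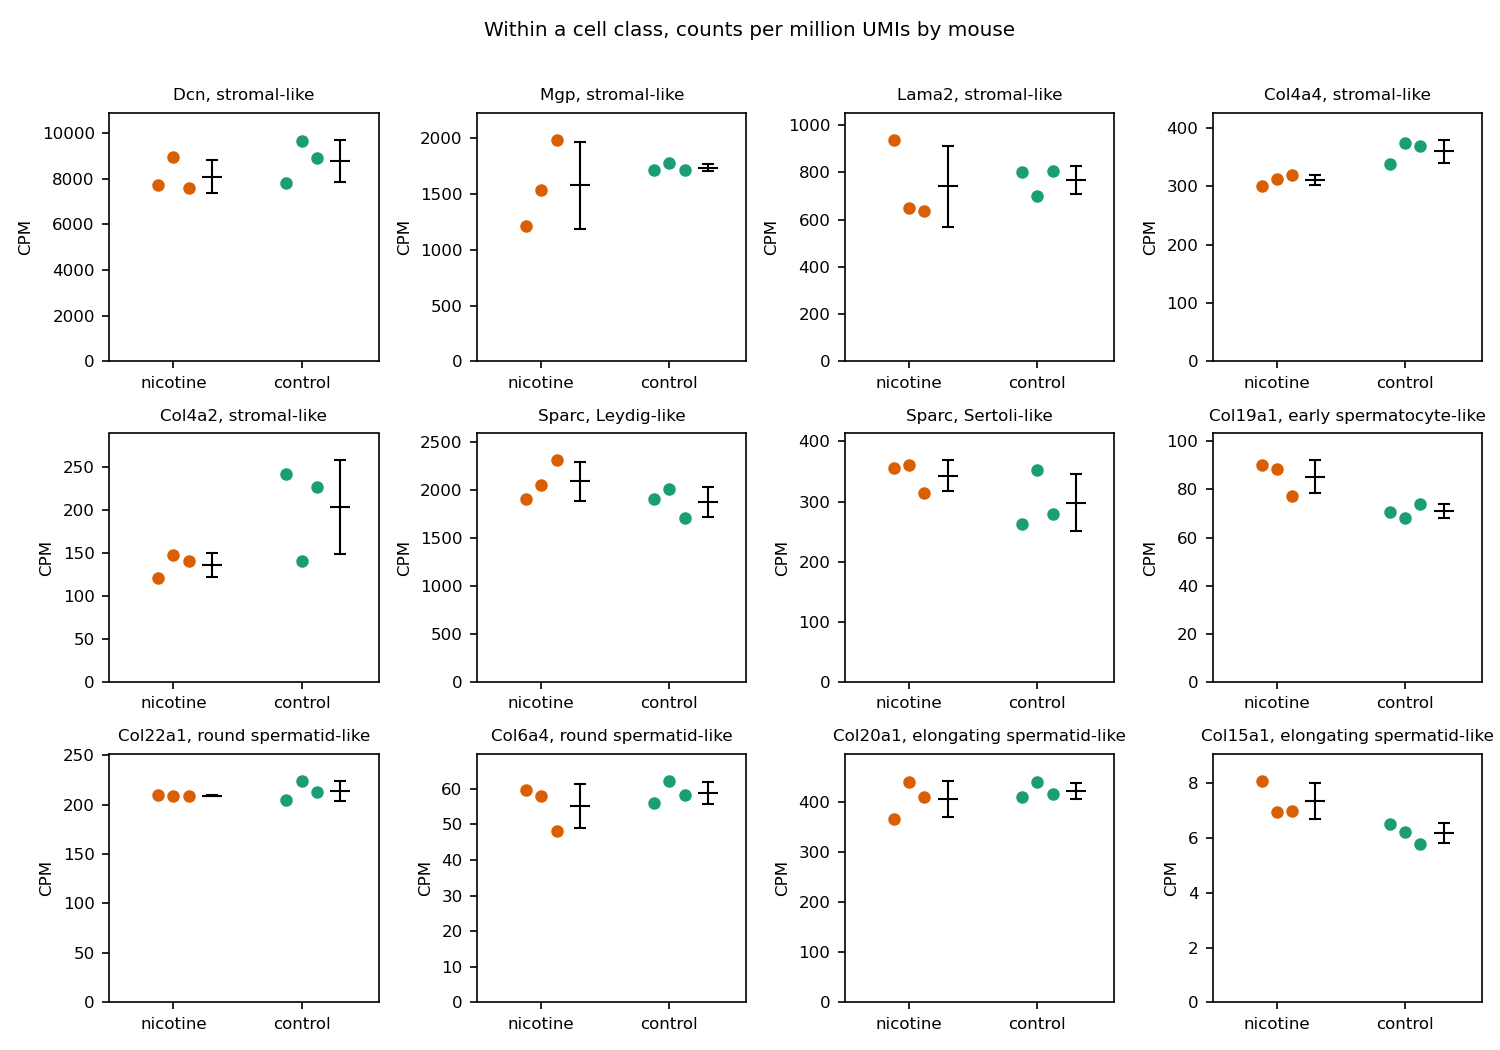
CPM within a cell class for 12 pairs of a member and a class, with a point for each mouse and the mean and SD beside them (n = 3 per group). Col4a4 in stromal-like cells lies lower in all nicotine mice, Col19a1 in early spermatocyte-like and Col15a1 in elongating spermatid-like cells lie higher, and the groups overlap elsewhere.

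In germ cells, where Col22a1, Col20a1 and Col6a4 are the leading matrix genes, no member passed either. These classes were tested, a step added once they were seen to hold most matrix UMIs. The members that passed numbered 0 of 25 in early spermatocyte-like cells, 0 of 21 in late ones, 0 of 46 in round and 0 of 30 in elongating spermatid-like cells, where 0.0923%, 2.07%, 0% and 0.0201% of all genes did. At an unadjusted p under 0.05 there were 2, 2, 4 and 3 members (6.71%, 16.1%, 2.12% and 4.5% of all genes), and DESeq2 called 0 in each class. In early spermatocyte-like cells Col19a1 had 89.97, 88.5 and 77.3 CPM in nicotine mice, against 70.6, 68.2 and 73.9 CPM in control mice, a log2 fold change 0.27 ± 0.11 (SE; edgeR adjusted p = 0.619), and Col20a1 had 28, 30.7 and 27.2 CPM in nicotine mice, against 38.9, 39.6 and 34.6 CPM in control mice, a log2 fold change -0.39 ± 0.14 (SE; edgeR adjusted p = 0.543). The groups did not overlap for either gene (5.44% of all genes lay wholly above and 5.85% wholly below). Lama2 averaged 74.8 ± 3.77 CPM in nicotine mice and 74.8 ± 11.6 CPM in control mice in that class (SD, n = 3 each), a difference smaller than the spread between mice.

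In late spermatocyte-like cells the nicotine mice lay wholly below the control mice for 2 tested members (10.5% of all genes) and above them for 1 (9.16% of all genes). Col22a1 had 61.8, 53.2 and 45.6 CPM in nicotine mice, against 39.3, 36.7 and 54.4 CPM in control mice, a log2 fold change 0.33 ± 0.14 (SE; edgeR adjusted p = 0.277), with overlapping groups. It passed when control replicate 3 was left out (edgeR adjusted p = 0.0112), a fit in which 953 of all 12815 genes passed and in which it was 1 of 21 members. Col25a1, the transmembrane collagen, averaged 4.94 ± 0.897 CPM in nicotine mice and 7.53 ± 0.745 CPM in control mice, a log2 fold change -0.58 ± 0.23 (SE; edgeR adjusted p = 0.209), without overlap. In round spermatid-like cells Col22a1 had 209, 209 and 208 CPM in nicotine mice, against 205, 224 and 213 CPM in control mice, and the nicotine mice lay inside the range of the control mice. Col6a4 averaged 55.2 ± 6.13 CPM in nicotine mice and 58.9 ± 3.15 CPM in control mice there. The nicotine mice were wholly below the control mice for 4 tested members (3.5% of all genes) and above them for 2 (2.72% of all genes) in round spermatid-like cells, and below for 2 tested members (1.98% of all genes) and above them for 4 (12.3% of all genes) in elongating ones. In elongating spermatid-like cells Col20a1 had 367, 440.1 and 411 CPM in nicotine mice, against 411, 439.7 and 415 CPM in control mice, with overlapping groups, and Col22a1 averaged 175 ± 8.49 CPM in nicotine mice and 167 ± 10.7 CPM in control mice. Sparc and Dcn, which are mostly somatic genes, had the smallest unadjusted p values among the members in elongating spermatid-like cells, with Sparc at 2.11 ± 0.334 CPM in nicotine mice and 3.02 ± 0.553 CPM in control mice, and Dcn at 0.559 ± 0.079 CPM in nicotine mice and 0.949 ± 0.329 CPM in control mice. In Sertoli-like cells Dcn had 1.73, 4.4 and 1.4 CPM in nicotine mice, against 6.45, 12.2 and 13 CPM in control mice. These levels rest on few UMIs. Dcn did not pass the filter on low counts in Sertoli-like cells, so it was not tested within them. Of all genes tested there, 5.85% lay wholly below the control mice. The 13 stromal markers summed to 8.26 to 9.54 CPM in elongating spermatid-like cells of nicotine mice and 8.52 to 10.2 CPM in those of control mice, with 0 of them at 0, and their part in the Dcn values was not tested. There the 10 Leydig markers summed to 16.2 to 19.2 CPM in nicotine mice and 25.2 to 41.7 CPM in control mice. The 16 Sertoli markers summed to 26.8 to 46.7 CPM in nicotine mice and 49.6 to 68.2 CPM in control mice. Of the 320 Sparc UMIs in this class, 95 lay in a cluster of 536 cells (21.8 CPM). The part of these in the Sparc values was not tested.

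Whether nicotine and control differed in another way in Sertoli-like than in stromal-like cells was tested with an interaction term, with the mouse as a block. Of 38 members tested, 0 passed (0% of all genes) and 4 had an unadjusted p under 0.05 (4.24% of all genes), and DESeq2 was not run for this term. Dcn had the smallest p (0.00123 unadjusted, 0.809 adjusted by edgeR), and rested on 36 UMIs in Sertoli-like cells. In Sertoli-like cells the 13 stromal markers summed to 20.5 to 32.9 CPM in nicotine mice and 21.6 to 122 CPM in control mice, with 1 of them at 0, and their part in the Dcn value was not tested. Lamb1, Sparc and Col6a5 were the other members under an unadjusted 0.05.

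The wider matrix pathway was read from lists of genes that make, bind or remove matrix. In whole testis 0 of 30 processing enzymes, 0 of 21 receptors, 0 of 13 genes of matrix breakdown and its inhibitors and 0 of 33 other matrix partners passed the test, beside 0.264% of all genes. At an unadjusted p under 0.05 there were 5, 6, 8 and 5 of them, beside 7.06% of all genes, and their median log2 fold changes were -0.16, -0.02, -0.40 and -0.10, beside 0.002 over all genes. In the summed somatic cells there were 0 of 18, 1 of 10, 0 of 8 and 3 of 19, beside 5.73% of all genes. Their medians there were -0.17, -0.30, -0.13 and -0.09, beside -0.006 over all genes. The part of the lower somatic share in the whole-testis values was not tested. Sec23a, a coat protein of the vesicles that carry procollagen, averaged 81.9 ± 6.17 CPM in nicotine mice and 70.7 ± 10.7 CPM in control mice, and 74% of its UMIs lay in elongating spermatid-like cells. Mia3, which loads procollagen into those vesicles, averaged 52.2 ± 5.75 CPM in nicotine mice and 52.6 ± 7.2 CPM in control mice. The collagen-binding integrins Itga1 and Itga2 averaged 21.1 and 11.6 CPM in nicotine mice, against 21.2 and 11.5 CPM in control mice, and round spermatid-like cells held 57.1% and 76% of their UMIs. Timp2, an inhibitor of matrix metalloproteases, averaged 51.8 ± 1.48 CPM in nicotine mice and 59.2 ± 3.26 CPM in control mice (edgeR adjusted p = 0.68). Ctsl, a protease abundant in Sertoli cells, averaged 17.9 ± 3.07 CPM in nicotine mice and 23.9 ± 1.29 CPM in control mice (SD, n = 3 each; edgeR adjusted p = 0.174). In every class tested, 0 genes of these lists passed.

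Members not yet described were mostly spermatid genes of low level. Round spermatid-like cells held the largest share of Col5a1 (72.3% of 2570 UMIs), a fibrillar collagen that starts fibrils, of Col9a1 (59.5% of 1751) and Col9a3 (56% of 1453), cartilage collagens, and of Col12a1 (63.3% of 874). They also held most of Col8a1, Col27a1 and Col26a1, at 60.8%, 58.2% and 50.7%, and 45.4% of the 3556 UMIs of Col28a1. Col23a1, a transmembrane collagen, was instead highest in share in elongating spermatid-like cells (55.4% of 1942 UMIs), and Col10a1, known from hypertrophic cartilage, in early spermatocyte-like cells (86.2% of 65 UMIs). Among the collagen VI chains, Col6a1 and Col6a2 were mostly somatic (86.8% and 67.1%), while Col6a3 and Col6a6 were not (21.7% and 27.8%). Lama1, a laminin chain of early basement membranes, had 39 of its 145 UMIs in Leydig-like cells, and Lama5, the chain of mature epithelia, had 3.1% of 226 UMIs in somatic clusters. Col17a1, Col7a1 and Col18a1, known from skin and vessel basement membranes, had 428, 187 and 156 UMIs, and Col5a2, Col13a1, Col24a1 and Col11a2 had 384, 136, 312 and 78. Of these, Col8a1 and Col24a1 had an unadjusted p under 0.05 in round spermatid-like cells (edgeR). Fn1, fibronectin, had 2467 UMIs, 89.3% of them in germ cell classes. Besides Col20a1 and Lamb3, Col24a1 and Col26a1 overlap another gene on the same strand, and 22 members overlap one on the other strand.

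The rarest members say little at this depth. Of 65, 6 had under 100 UMIs in all 6 mice together, the lowest being Col9a2 with 3, Col8a2 with 30 and Col5a3 with 31, and these 3 were left out of the whole-testis test by the filter. At the other end, 28 members had at least 1000 UMIs.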

How the data were processed

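Single-cell libraries of whole testis from 6 mice were analysed from UMI counts per gene and cell that the authors deposited as filtered matrices; Cell Ranger 7.2.0 and the builds GRCm38 and mm10 are named per the submitters' processing notes. The sources used here do not give whether intronic reads or strand were used in counting. A cell was kept if it had 500 or more UMIs, 250 or more genes and less than 20% of its UMIs from mitochondrial genes. Scrublet's own threshold called 0 to 1.29% of cells per library, so the highest-scoring 0.8% per 1000 cells were removed instead. Cells were clustered in scanpy 1.11.5 (2000 variable genes, of which the 1986 that are not matrix genes were used, 30 principal components, 15 neighbours, Leiden resolution 1), and somatic clusters were clustered again. A cluster was named from at least 3 detected markers.

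Counts were summed per mouse over whole testis, over somatic clusters and within each class with at least 20 cells in every mouse, and CPM is counts per 1000000 UMIs of that sum. Nicotine minus control was tested over all genes passing filterByExpr with edgeR 4.0.16 (TMM, robust quasi-likelihood test, R 4.3.3) and Benjamini-Hochberg adjustment over all genes tested at 0.05. Alternatives were DESeq2 1.42.0, no filter on low counts, at least 1000 UMIs per cell, doublets left in, matrix genes used to cluster, finer clusters, equal cell numbers per mouse, a replicate block and leaving out each mouse. Fits were tested on simulated data.

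Named with values were the 10 members of each matrix group with the most UMIs, the 3 highest members of each class, members called anywhere, the collagen IV pairs, and in each pathway list the 2 genes with the most UMIs; others were chosen after their values were seen. The members and lists were chosen with earlier results of these data known. Interstitial and basement membrane genes were split by role: collagen IV, other basement membrane collagens, laminins and nidogens formed the basement membrane group. All other members were counted as interstitial, among them the transmembrane collagens, Col17a1 included. The values of 1 member are not reported here, although counts and sums over the members include it.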

Additional observations from a re-analysis of the deposited data

Results flagged for a closer look

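For Col15a1, a collagen at the outer side of basement membranes, the mice did not overlap in stromal-like and in elongating spermatid-like cells, with opposite signs. In stromal-like cells every nicotine mouse was below every control mouse (log2 fold change -0.29 ± 0.25, SE), as for 3.51% of all genes. In elongating spermatid-like cells every nicotine mouse was above every control mouse (0.17 ± 0.12), as for 12.3% of all genes. For Col6a4, a collagen VI chain, every nicotine mouse was lower in Sertoli-like cells (-0.30 ± 0.30) and in early spermatocyte-like cells (-0.34 ± 0.21), as for 5.85% of all genes in each, and every nicotine mouse was higher in elongating spermatid-like cells (0.23 ± 0.15). These differences between classes were not tested, and none of these values passed the test within its own class.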

How the results depend on the processing

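In 125 of 131 alternatives no member passed the adjusted threshold, and in 6 alternatives 1 member did. In whole testis Sparc passed with DESeq2 (log2 fold change -0.45), without a filter on low counts (-0.46), with doublets left in (-0.51) and without nicotine replicate 3 (-0.54, edgeR adjusted p = 0.0480), so that leaving out each mouse gave 0 to 1 called members. Col22a1 passed in late spermatocyte-like cells without control replicate 3 (0.51) and with matrix genes used to cluster (0.33), and leaving out each mouse gave 0 to 1 there as well. In these alternatives 953 of 12815 and 1220 of 14913 genes passed, for 1 of 21 and 1 of 29 members. Over all genes of whole testis, 58 passed in the fit reported, 178 with DESeq2, 140 without a filter, 128 with doublets left in, 13 when control replicate 2 was left out, 0 when nicotine replicate 1 was, and 0 when control replicate 3 was.

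In stromal-like cells, counting in the Cyp26b1 cluster, an alternative chosen after seeing the data, turned the direction of Dcn (0.0607), Mgp (0.0441) and Sparc (0.0381), and leaving doublets in turned that of Mgp (0.109). With matrix genes used to cluster, elongating spermatid-like cells held 74.4% of Col20a1 and round spermatid-like cells 68.7% of Col6a4. The cause was not tested in any of these. A second draw of equal cells and the tests within germ cell classes were also chosen after seeing the data.

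Replicate numbers were not taken to pair the mice. Deviations of same-numbered mice correlated at -0.16, 0.64 and 0.07, and those of differently numbered mice at -0.58 to 0.60. With 3 mice per group these values cannot settle whether the mice were paired. With a replicate block 0 members passed in every set of cells, 73 genes passed in whole testis, and Sparc stood at -0.46 (edgeR adjusted p = 0.0608). Alternatives for myoid-like, endothelial-like and macrophage-like cells were not run, since these classes were not found or had too few cells in nicotine replicate 1. In Sertoli-like cells no basement membrane gene passed the filter on low counts, so none was tested within that class.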
